A study of Mus musculus with 17 samples.

Results

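Gene expression was compared between kidneys of diabetic BTBR ob/ob mice given saline and kidneys of wild type BTBR mice, in 5 libraries of each, out of 17 in the series. The 10 libraries were chosen by their source label, and the comparison ran over every gene of the raw count table. Messenger RNA came from glomeruli-enriched cortex, so tubule RNA is part of every sample. The ob/ob mice carry the Lep ob mutation on the BTBR background, lack leptin in every tissue and become obese and diabetic. They received saline from 18 to 24 weeks of age, by the same schedule as 7 further ob/ob mice given atrasentan, an endothelin A receptor antagonist, at 5 mg per kg per day in drinking water. The wild type mice were of equal age at death, and the labels name no treatment for them, so the genotype and the saline schedule cannot be told apart. The genotype labels end in d30 in both groups, without a stated meaning. In bulk tissue, fewer cells of a type and less RNA per cell cannot be told apart.

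The glomerulus filters blood through a fenestrated endothelium, a basement membrane and the slit diaphragms of podocytes, and mesangial cells hold its capillaries together. The proximal tubule that follows takes back sugar, amino acids, phosphate and filtered protein, makes glucose and secretes organic ions and drugs. In diabetes the glomerulus enlarges, podocytes are lost and mesangial matrix expands, and the BTBR ob/ob mouse is used as a model of that disease.

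Lep, the leptin gene (GRCm38, chromosome 6, 29060220 to 29073877), had 1 read in saline library 1 and 0 reads in the other 9 libraries, so its level gives no check of the genotype in this tissue. Levels are CPM, gene counts scaled by library size with TMM factors. Glomerular RNA was present in every library: the glomerular endothelial marker Ehd3 stood at 3456 to 4637 CPM in wild type and 3265 to 4464 CPM in saline libraries. Tubule RNA differed between libraries. The mean log2 CPM of 22 proximal tubule markers was 5.21, 5.86, 5.60, 6.16 and 5.29 in wild type libraries 1 to 5 and 8.11, 6.30, 8.13, 5.98 and 7.09 in saline libraries 1 to 5. The mean of 26 podocyte markers was 8.25, 7.80, 8.41, 7.92 and 7.73 in wild type and 7.02, 6.91, 7.07, 7.76 and 7.50 with saline. Saline libraries 1 and 3 had the highest tubule means, and saline library 4 lay inside the wild type range of both measures. Saline library 2 was just above that range for tubule markers and had the lowest podocyte mean. Gene reads ran from 29161833 to 40965108 per library.

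**Figure D1:**
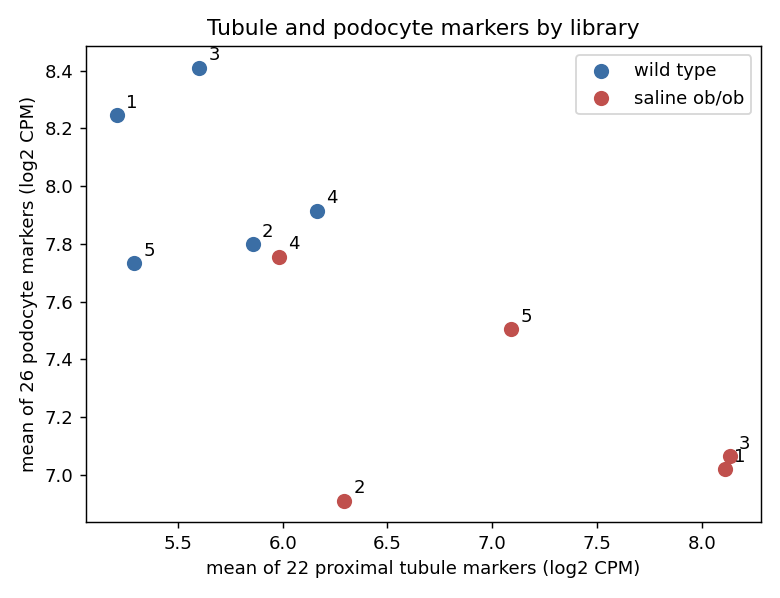
Mean log2 CPM of the proximal tubule markers (x axis) against that of the podocyte markers (y axis), 1 point per library, numbered within its group. Saline libraries 1 and 3 lie farthest right, at 8.11 and 8.13, and saline library 4 lies among the wild type libraries.

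Of 17766 genes tested, 570 rose (3.21%) and 340 fell (1.91%) in saline ob/ob mice at an adjusted p under 0.05 (edgeR quasi-likelihood test, Benjamini-Hochberg adjustment). Without regard to the test, the 5 saline values lay above all 5 wild type values for 615 genes (3.46%) and below them for 703 (3.96%). The median log2 fold change was 1.32 over the risen genes and -0.88 over the fallen genes, and 132 genes rose and 26 fell by a fold of at least 4. The risen and the fallen genes differed in how the saline libraries spread. For risen genes the median SD of log2 CPM was 0.70 over saline and 0.31 over wild type libraries. For fallen genes it was 0.28 and 0.27, and over all genes tested 0.27 and 0.27. Saline libraries 1 and 3 were the 2 highest of the 5 saline libraries in 416 of the 570 risen genes (73.0%) and in 25.8% of all genes tested, a count made after the values were seen. Leaving out 1 library at a time gave 89 risen and 131 fallen genes without wild type library 5, and 1105 and 418 without saline library 4. The risen count moved by over 1.5 times with every library left out, and the fallen count with every one but saline libraries 2, 4 and 5. With upper-quartile scaling 503 rose and 483 fell, so 51.0% of calls were rises against 62.6% in the fit as reported. Saline library 4 exceeded every wild type library in 363 of the risen genes (63.7%) and was below every wild type library in 299 of the fallen genes (87.9%). Both shares were the lowest of the 5 saline libraries. The fit that called these genes included library 4, so the counts are no separate support, and the share over all genes was not counted.

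**Figure D2:**
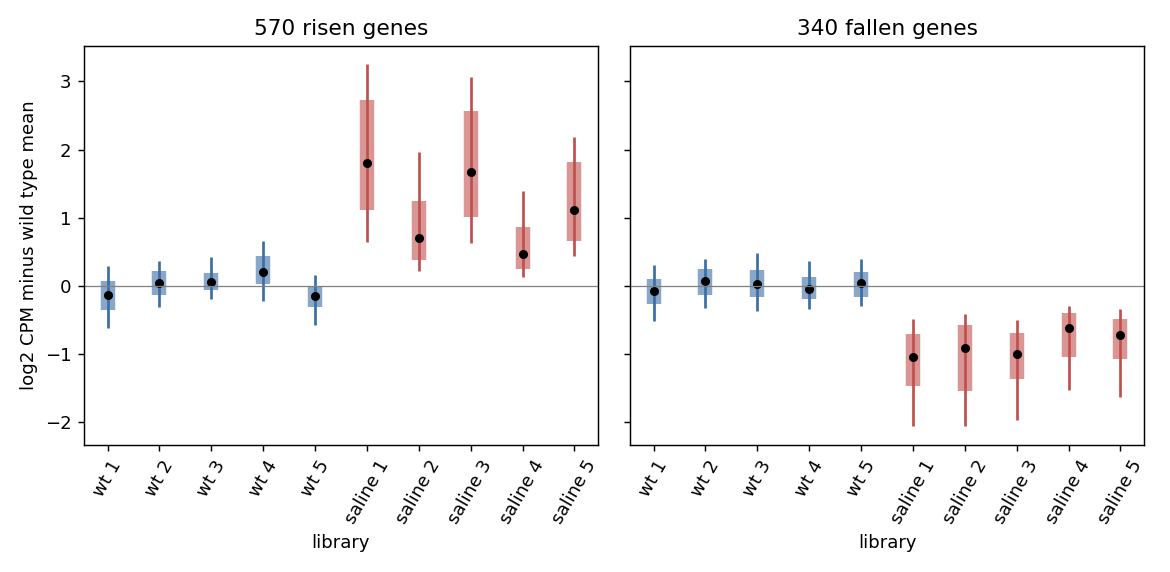
Log2 CPM minus the wild type mean (y axis) in each library (x axis) over the risen genes (left) and the fallen genes (right). Points are medians, thick bars the middle 50% of genes and thin bars the middle 80%. The median over the risen genes was 1.68 in saline library 3 and 0.47 in saline library 4, and over the fallen genes -1.05 in saline library 1 and -0.62 in saline library 4.

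A narrower set of genes was called in the fit and also in each of 15 alternatives, namely 10 fits that leave out 1 library, 2 other scalings, a fit of the 2 groups alone, DESeq2 and limma-voom. It held 67 risen genes (0.377% of those tested) and 97 fallen genes (0.546%), and 33 of these 164 were also called when the proximal tubule mean of each library entered as a covariate. That covariate left 48 genes called in all (0.27%), 29 risen and 19 fallen. With the podocyte mean minus the proximal tubule mean (the glomerular share) as a covariate, 6 were called (0.0338%). Every other called gene lost its call in at least 1 of the 15, which of the genes with a test given here holds for Arntl, Bmp2, Bmper, Cd79b, Cyp27b1, Efnb1, Gc, Glyctk, Kap, Lmx1b, Lrrc4, Ltbp2, Nphs1, Ptn, Robo2, Sele, Skil, Slc13a1, Slc5a10, Slco1a6, Smad6, Smad7, Smo, Sult1d1, Tspan33, Ugt1a1 and Wt1. These covariates take up part of the difference between the groups themselves, since the groups differ in both measures.

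The lowest 3 p-values belonged to genes that fell, Snx31, Rasl12 and Sfrp2. Snx31 encodes a sorting nexin that binds integrins in endosomes (chromosome 15, 36504062 to 36555573). It stood at 49.3, 63.8, 76.5, 50.5 and 51.9 CPM in wild type libraries 1 to 5 and at 18.8, 13.9, 16.1, 20.6 and 22.5 CPM in saline libraries 1 to 5. Every saline library was below every wild type library, and it fell by 1.67 on the log2 scale (SE 0.17, adjusted p = 0.000142). Rasl12, a small GTPase of the Ras family (chromosome 9, 65398506 to 65414853), stood at 145, 181, 138, 146 and 131 CPM in wild type and 69.5, 58.3, 64.95, 83.9 and 71.7 CPM with saline. The groups did not overlap, and the log2 fold change was -1.09 ± 0.11 (SE), adjusted p = 0.000142. Sfrp2, a secreted modulator of Wnt signalling listed here among mesangial markers (chromosome 3, 83766321 to 83774316), stood at 1121, 1515, 1058, 1512 and 1330.1 CPM in wild type and 309.8, 418, 244, 441 and 500.4 CPM with saline. All 5 saline libraries were below the lowest wild type library, at a log2 fold change of -1.77 ± 0.19 (SE), adjusted p = 0.000207. Snx31, Rasl12 and Sfrp2 were also called with either covariate.

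Of 26 podocyte markers, 10 fell, none rose and 16 were not called (1.91% fell and 3.21% rose over all genes), with a median log2 fold change of -0.81 against 0.0056 over all genes tested. Of these 10, 2 were called in all 15 alternatives. Nphs1, the slit diaphragm protein nephrin, and Wt1, a podocyte transcription factor, fell by 1.06 and 1.17 on the log2 scale without overlap, and neither was called with the tubule covariate. Plce1, a phospholipase mutated in hereditary nephrotic syndrome, stood at 103, 86.5, 118, 95.7 and 103 CPM in wild type and 28.1, 36.7, 37.3, 50.99 and 41.5 CPM with saline, without overlap. Its log2 fold change was -1.38 ± 0.28 (SE), adjusted p = 0.0127. Lmx1b, a podocyte transcription factor, stood at 54.2, 36.2, 59.3, 43.99 and 39.4 CPM in wild type and 14.6, 12.6, 16.8, 25.8 and 21.3 CPM with saline. It was lower in every saline library, most in saline libraries 1 to 3 (log2 fold change -1.35 ± 0.31 (SE), adjusted p = 0.0222). The podocyte polarity gene Pard3b stood at 231, 222, 304, 243 and 253 CPM in wild type and 91.1, 122, 101, 128 and 114 CPM with saline. The groups were separate, at a log2 fold change of -1.17 ± 0.15 (SE), adjusted p = 0.00171. Wt1os, on the strand opposite Wt1, fell by 1.54 on the log2 scale. The library kit does not mark strand, so reads of Wt1os and Wt1 cannot be told apart where the genes overlap. Reads that fit both genes were counted for neither.

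Of 35 genes of the VEGF, angiopoietin and semaphorin list, 4 fell and 1 rose, beside 1.91% and 3.21% over all genes. Pgf, placental growth factor, a ligand of the VEGF receptor Flt1, stood at 32.4, 44.3, 33.1, 58.5 and 46.5 CPM in wild type and 12.8, 15.8, 20.2, 18.8 and 15.1 CPM with saline. The groups did not overlap, with a log2 fold change of -1.38 ± 0.18 (SE), adjusted p = 0.00192. Vegfd, a ligand of VEGF receptors known for lymphatic growth, stood at 24.7, 19.1, 17.1, 16.5 and 14.1 CPM in wild type and 43.03, 47.1, 62.9, 49.4 and 34.8 CPM with saline. All saline libraries were higher, at a log2 fold change of 1.37 ± 0.24 (SE), adjusted p = 0.00791. Ephb1, a receptor tyrosine kinase for ephrins that is not on this list, stood at 69.7, 71.6, 91.4, 60.2 and 62.1 CPM in wild type and 19.04, 14.2, 18.1, 28.01 and 26.999 CPM with saline. Its highest saline library was below its lowest wild type library (log2 fold change -1.74 ± 0.26 (SE), adjusted p = 0.00323). Efnb1, an ephrin ligand, and Robo2, the Slit receptor of podocytes, fell by 0.55 and 1.01 on the log2 scale. Cldn5, a claudin of endothelium and podocytes, stood at 211, 218, 241, 149.7 and 160.0 CPM in wild type and 77.6, 65.9, 67.8, 116 and 110.0 CPM with saline, without overlap (log2 fold change -1.16 ± 0.18 (SE), adjusted p = 0.00344). Of 24 glomerular endothelial markers Cldn5 alone was called, a share near the 5.12% over all genes.

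Of 21 mesangial and vascular smooth muscle markers 3 fell and none rose (1.91% and 3.21% over all genes), and the median log2 fold change was -0.03. Besides Sfrp2, these were Postn and Ptn. Postn, a matrix protein, stood at 5.43, 14.7, 6.32, 6.14 and 13.03 CPM in wild type and 1.42, 2.29, 1.85, 2.26 and 1.64 CPM with saline. Every saline library was lower, at a log2 fold change of -2.27 ± 0.31 (SE), adjusted p = 0.00192. Dmpk, a kinase of muscle cells, fell by 0.88 and Kcnj8, the pore subunit of a potassium channel of pericytes and smooth muscle, by 2.39 on the log2 scale. Of the extracellular matrix list, 8 of 54 tested genes rose and 2 fell, beside 3.21% and 1.91% over all genes. The fibrillar collagen gene Col1a2 stood at 103, 101, 101, 97.2 and 73.9 CPM in wild type and 42.03, 30.6, 37.4, 66.7 and 37.3 CPM with saline. It was lower in each saline library (log2 fold change -1.15 ± 0.20 (SE), adjusted p = 0.00544), while the small proteoglycan decorin (Dcn) was higher, at 14.7, 11.5, 6.64, 6.81 and 8.87 CPM in wild type and 17.1, 19.98, 24.3, 26.5 and 21.6 CPM with saline (log2 fold change 1.17 ± 0.24 (SE), adjusted p = 0.015). Col14a1, a collagen that sits on fibril surfaces, rose by 1.65 ± 0.33 (SE), adjusted p = 0.0136 on the log2 scale.

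**Figure D3:**
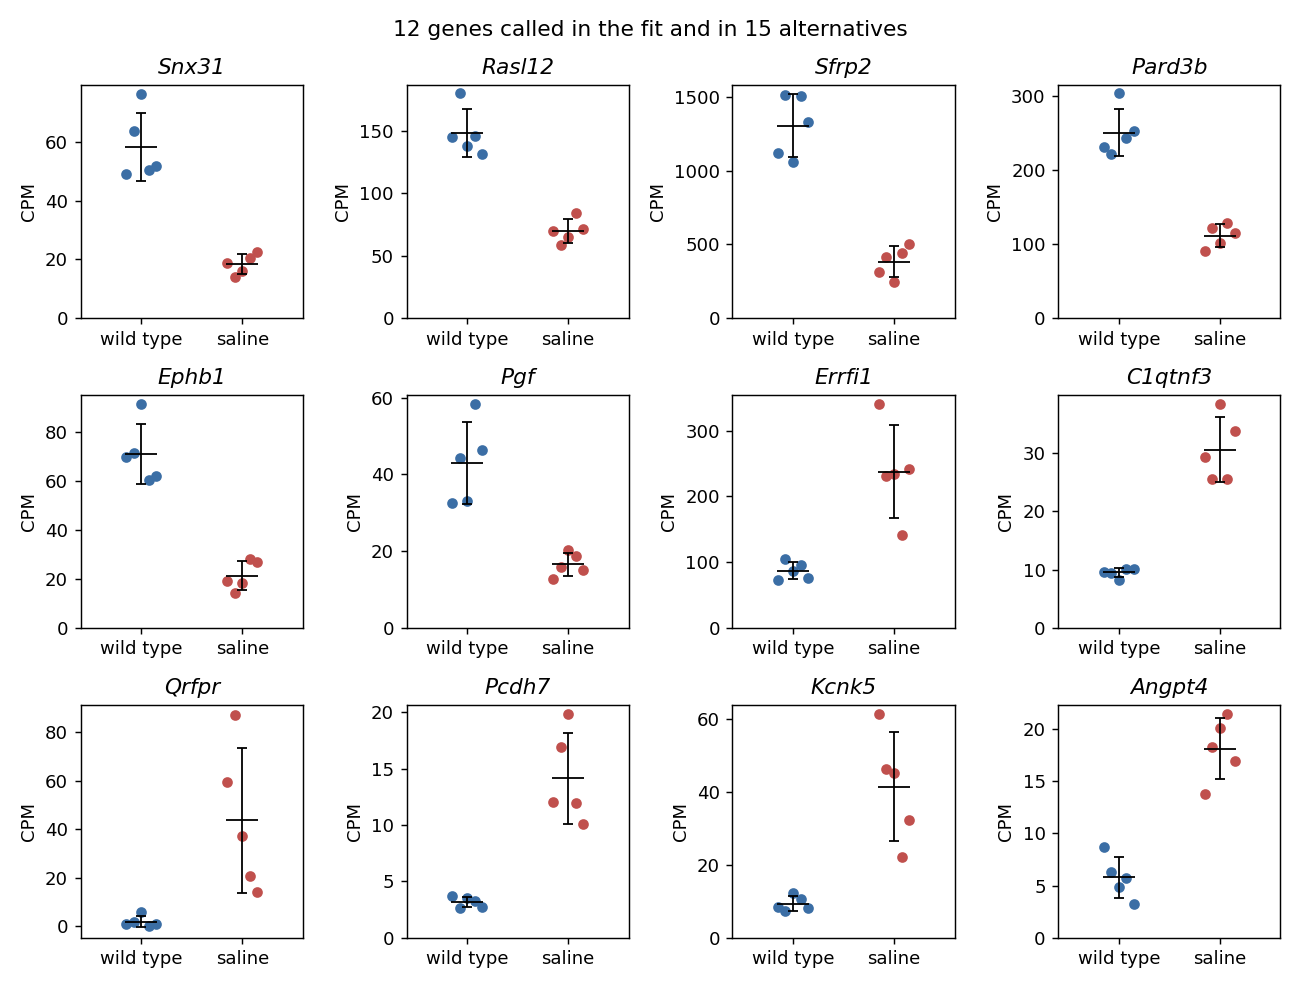
CPM (y axis, linear) of 12 genes called in the fit and in 15 alternatives, 1 point per library, with the mean and SD of 5 libraries in black. The groups do not overlap for any of the 12, of which Snx31, Rasl12, Sfrp2, Pard3b, Ephb1 and Pgf are lower with saline.

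Of the genes that rose, Errfi1 had the lowest p. It encodes a feedback inhibitor of the epidermal growth factor receptor (chromosome 4, 150853919 to 150868892) and stood at 73.1, 105, 86.6, 95.5 and 75.5 CPM in wild type and 341, 230.3, 233, 141 and 241 CPM with saline. Each saline library was above every wild type library (log2 fold change 1.45 ± 0.18 (SE), adjusted p = 0.00113). C1qtnf3, a secreted protein of the adiponectin-related family, stood at 9.55, 9.47, 8.16, 10.1 and 10.2 CPM in wild type and 29.3, 25.6, 38.5, 25.6 and 33.7 CPM with saline. The groups were separate and each was narrow, with a log2 fold change of 1.68 ± 0.23 (SE), adjusted p = 0.00192. Qrfpr, the receptor of an RF-amide neuropeptide, stood at 1.06, 1.900, 6.01, 0.365 and 0.825 CPM in wild type and 59.5, 86.97, 37.2, 20.9 and 14.1 CPM with saline. Saline libraries 1 and 2 were the highest, and the log2 fold change was 4.44 ± 0.62 (SE), adjusted p = 0.00224. Pcdh7, a protocadherin, stood at 3.65, 2.62, 3.51, 3.29 and 2.71 CPM in wild type and 12.1, 16.9, 19.8, 11.9 and 10.1 CPM with saline, without overlap (log2 fold change 2.16 ± 0.30 (SE), adjusted p = 0.00224).

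Other genes of the narrower set rose too. Kcnk5, a potassium channel of the 2-pore family, stood at 8.396, 7.24, 12.3, 10.6 and 8.07 CPM in wild type and 61.4, 46.4, 45.3, 22.2 and 32.3 CPM with saline. All saline libraries were higher, with a log2 fold change of 2.16 ± 0.32 (SE), adjusted p = 0.00323. Of 19 potassium channel genes 2 rose and 1 fell (3.21% and 1.91% over all genes). The calcium-permeable channel Trpv4 rose by 0.99 ± 0.16 (SE), adjusted p = 0.00412 and the orphan receptor Gpr176 by 2.80 ± 0.41 (SE), adjusted p = 0.00323 on the log2 scale. Sesn2, a stress-induced inhibitor of mTORC1, stood at 34.7, 24.8, 30.7, 38.1 and 25.3 CPM in wild type and 83.1, 64.8, 67.96, 52.2 and 62.4 CPM with saline. The groups did not overlap (log2 fold change 1.11 ± 0.16 (SE), adjusted p = 0.00238). Tgm2, which cross-links matrix proteins, rose by 1.002 ± 0.16 (SE), adjusted p = 0.00391. Angpt4, an angiopoietin, stood at 8.75, 6.27, 4.87, 5.72 and 3.27 CPM in wild type and 13.8, 18.3, 20.1, 21.5 and 16.995 CPM with saline, again without overlap (log2 fold change 1.65 ± 0.25 (SE), adjusted p = 0.00344). Errfi1, C1qtnf3, Qrfpr, Pcdh7, Kcnk5, Gpr176, Sesn2 and Angpt4 were also called with the proximal tubule covariate, while Trpv4 and Tgm2 were not.

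Of 28 BMP and TGF-beta genes 6 rose and none fell (3.21% and 1.91% over all genes), with a median log2 fold change of 0.32 over the list. The ligands Tgfb1, Tgfb2 and Tgfb3 were not called, at log2 fold changes of 0.05, -0.19 and 0.35. Bmp2, a BMP ligand, stood at 50.4, 49.4, 42.5, 47.1 and 35.7 CPM in wild type and 77.5, 122, 60.5, 89.8 and 69.1 CPM with saline, without overlap (log2 fold change 0.90 ± 0.22 (SE), adjusted p = 0.0299). Smad6, an inhibitory SMAD of BMP signalling, stood at 549.9, 582, 774, 655 and 887 CPM in wild type and 1187, 2043, 991, 1338 and 1047 CPM with saline. Saline library 2 was the highest, and the log2 fold change was 0.94 ± 0.22 (SE), adjusted p = 0.0244. Bmper, Smad7, Ltbp2 and Skil rose by 0.85, 0.64, 1.22 and 0.62 on the log2 scale.

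Several lists of tubule transport and metabolism genes held many risen genes. Of 22 proximal tubule markers 8 rose and 1 fell, and the median log2 fold change went from 1.92 to 0.11 with the covariate, which is made from these same markers. None of the 22 was called in all 15 alternatives. Of 12 distal convoluted tubule markers 4 rose and of 13 collecting duct markers 2, and none of these fell (3.21% and 1.91% over all genes). Of 12 loop of Henle markers none was called, which with so few genes is no result about them. The loop of Henle median was 0.48, and -1.11 with the covariate. Of 30 conjugation enzymes 13 rose, of 28 genes of glucose metabolism 11, of 22 organic ion transporters 8, of 22 amino acid transporters 6 and of 25 cytochrome P450 genes 6, and none of these fell, where 3.21% of all genes rose. Their medians were 1.71, 1.19, 1.83, 1.63 and 0.999, and with the covariate 0.19, 0.16, 0.054, 0.069 and 0.12. Only 1 organic ion transporter and 1 cytochrome P450 gene of these lists were called in all 15 alternatives. Slc5a10, a sodium-coupled sugar transporter, stood at 4.32, 6.42, 7.24, 7.54 and 3.24 CPM in wild type and 186, 23.3, 141, 17.5 and 40.6 CPM with saline. The groups were separate, but saline libraries 1 and 3 were far above the other three (log2 fold change 3.83 ± 0.81 (SE), adjusted p = 0.0168). Slco1a6, an organic anion transporter, stood at 6.56, 15.05, 8.98, 12.4 and 7.07 CPM in wild type and 126, 28.4, 129, 29.7 and 45.6 CPM with saline, and was called with the proximal tubule covariate too (log2 fold change 2.84 ± 0.62 (SE), adjusted p = 0.0197). The part of tubule RNA content in these rises was not tested beyond that covariate.

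**Figure D4:**
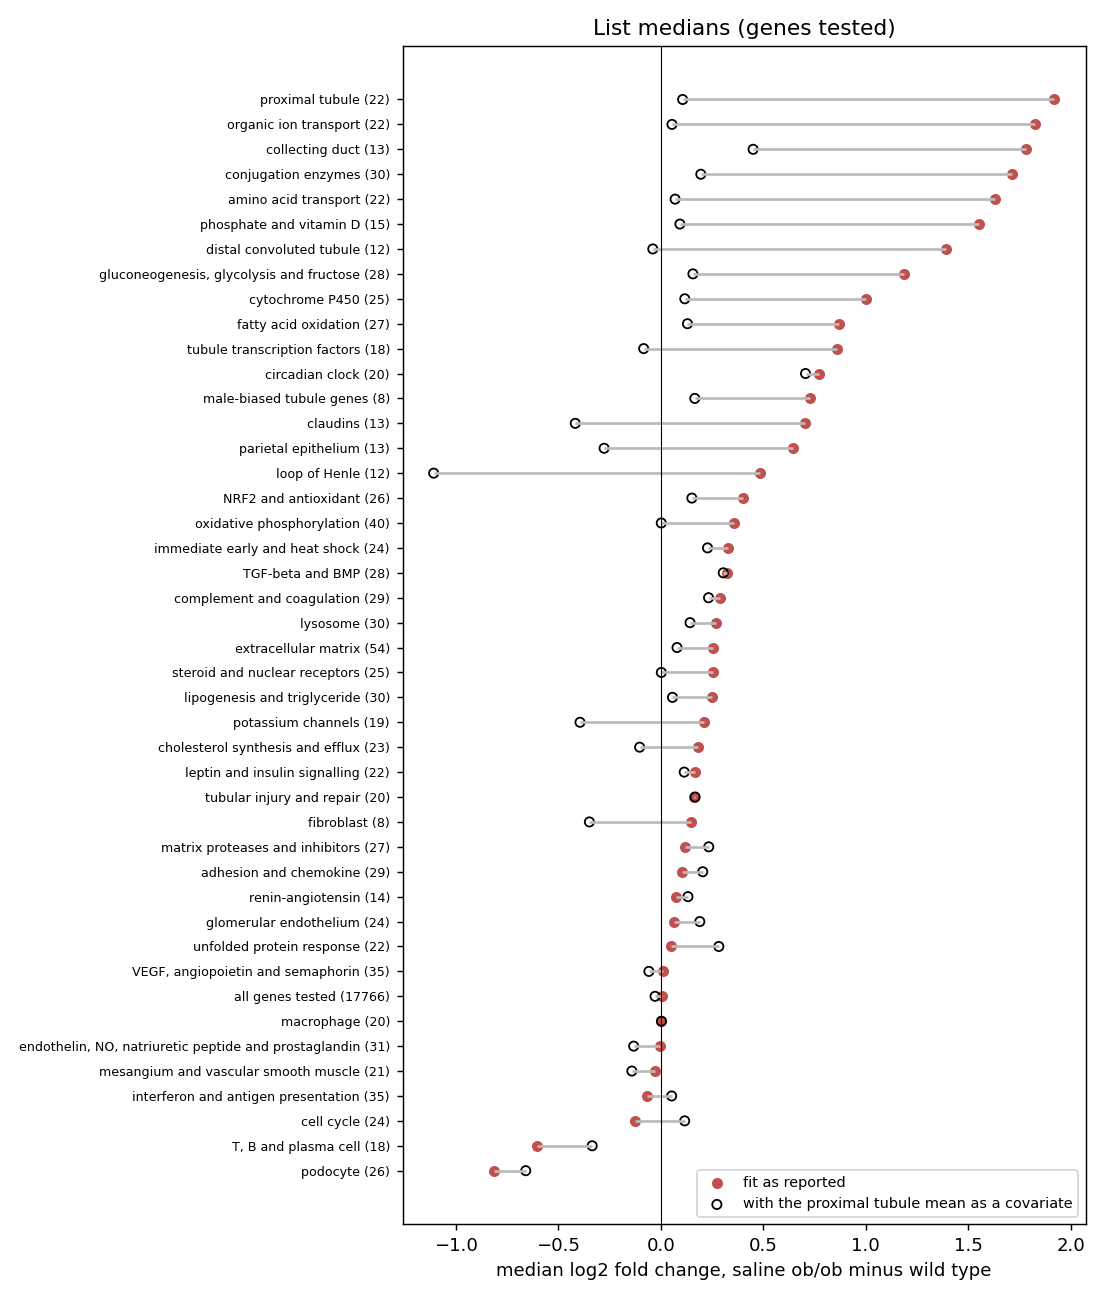
Median log2 fold change (x axis) of each gene list with at least 8 genes tested (y axis, number tested in brackets), in the fit as reported (filled) and in the fit with the proximal tubule covariate (open). The proximal tubule list moves from 1.92 to 0.11 and the podocyte list from -0.81 to -0.66.

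Kap, an androgen-regulated proximal tubule gene, went against the other 21 markers of that list, all of which had a positive log2 fold change. It stood at 14.1, 187, 28.4, 29.2 and 82.05 CPM in wild type and 10.6, 1.56, 23.3, 2.31 and 4.83 CPM with saline. The groups overlapped, with wild type library 2 the highest and saline libraries 2 and 4 the lowest, and the log2 fold change was -2.99996 ± 0.79 (SE), adjusted p = 0.0386. Of 15 genes of the phosphate and vitamin D list 5 rose and none fell (3.21% and 1.91% over all genes), among them Calb1 and S100g, which are also distal tubule markers. The list median was 1.55, 0.093 with the tubule covariate and 0.68 without saline libraries 1 and 3. Cyp24a1, which inactivates calcitriol, stood at 3.59, 4.07, 6.58, 12.96 and 2.27 CPM in wild type and 36.6, 115, 19.96, 21.01 and 78.6 CPM with saline. All saline libraries were higher, saline library 2 most (log2 fold change 3.21 ± 0.58 (SE), adjusted p = 0.00886), and the gene was called with the tubule covariate. Cyp27b1, which makes calcitriol, stood at 2.304, 2.83, 14.4, 0.852 and 0.236 CPM in wild type and 166, 16.6, 125, 14.1 and 33.99 CPM with saline. These groups overlapped at wild type library 3 (log2 fold change 4.11 ± 0.99 (SE), adjusted p = 0.0273).

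Promoter sequences were searched to describe what the risen genes share. RefSeq promoter windows (GRCm38.p6, 250 bases before to 50 after the start) matched 12214 tested genes, of which 420 had risen and 248 had fallen. In all, 16 motif patterns were searched on both strands, some of them several spellings of 1 motif. The E-box CACGTG was in 10.2% of risen and 9.71% of all windows. Spellings of 1 motif differed: the antioxidant response element was in 2.62% of risen and 2.84% of all windows in its 10-letter form, and in 0.952% (4 windows) and 0.409% in its 9-letter form. The HNF4 motif was in 5.0% and 4.04% in its 7-letter form, and in 0.952% (4 windows) and 0.434% in its 9-letter form. The cyclic AMP response element was less frequent in risen windows, at 1.9% against 3.0%, and 2 patterns, of the PPAR response element and DR1, were in none of the risen windows. The pattern shown here was picked after these counts were seen. The HNF1 motif in a 10-letter form, which is GTTAAT, any base and then ATT, was in 8 of 420 risen (1.9%), 0 of 248 fallen and 40 of all 12214 windows (0.327%). Its 6-letter core GTTAAT, which lies inside the longer forms, was in 45 risen (10.7%), 21 fallen (8.47%) and 584 of all windows (4.78%), and the 12-letter form, with AA added, in 1, 0 and 6. No test was made, and the genes were chosen by the match. Of the 8 risen genes, 4 are shown to make the match visible, as 40 bases that end before the start, 5′ to 3′ on the gene's strand, with the match in capitals. They are Sult1d1, a sulfotransferase (chr5:87569061-87569100, minus strand), Ugt1a1, a glucuronosyltransferase (chr1:88211899-88211938, plus strand), Gc, the vitamin D binding protein (chr5:89457926-89457965, minus strand), and Glyctk, glycerate kinase (chr9:106158175-106158214, minus strand).
Sult1d1: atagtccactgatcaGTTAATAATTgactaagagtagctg
Ugt1a1: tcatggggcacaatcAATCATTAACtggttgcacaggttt
Gc: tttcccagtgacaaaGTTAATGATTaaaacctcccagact
Glyctk: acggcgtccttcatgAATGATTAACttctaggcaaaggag
These genes rose by 2.43, 2.07, 2.49 and 1.78 on the log2 scale in the order shown.

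Of 30 lysosomal genes 6 rose and none fell (3.21% and 1.91% over all genes), and 1 was called in all 15 alternatives. The list median was 0.27, 0.14 with the tubule covariate and 0.16 without saline libraries 1 and 3. The summed level was 10596, 7694, 10004, 7447 and 8769 CPM in saline libraries 1 to 5, highest in libraries 1 and 3. Lipa, the acid lipase that frees cholesterol from lipoproteins, stood at 157, 209.8, 173, 176 and 142 CPM in wild type and 409, 274, 390.3, 217 and 310.0 CPM with saline, without overlap (log2 fold change 0.90 ± 0.15 (SE), adjusted p = 0.00448). Of 26 NRF2 and antioxidant genes 9 rose and none fell (3.21% and 1.91% over all genes), and 1 was called in all 15 alternatives. Their median was 0.40, 0.15 with the tubule covariate and 0.25 without saline libraries 1 and 3. Their summed level was 42072, 11103, 36345, 8754 and 22714 CPM in saline libraries 1 to 5, highest in libraries 1 and 3. Most of this sum came from 1 gene, Gpx3, so it says little of the other members. Osgin1, an oxidative stress gene, stood at 10.3, 6.36, 8.16, 5.72 and 3.95 CPM in wild type and 41.1, 17.9, 38.1, 11.5 and 22.997 CPM with saline. All saline libraries were higher (log2 fold change 1.93 ± 0.37 (SE), adjusted p = 0.0117). Complement C3 stood at 13.9, 12.3, 17.8, 12.99 and 14.8 CPM in wild type and 142, 32.5, 110.2, 29.7 and 74.6 CPM with saline. Saline libraries 1, 3 and 5, which have the highest proximal tubule means, were the highest (log2 fold change 2.44 ± 0.47 (SE), adjusted p = 0.0113).

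Of immune cell markers, none of 20 of macrophages, none of 7 of neutrophils and 1 of 18 of T, B and plasma cells was called, which is near the 5.12% called over all genes. The called gene, Cd79b of the B cell receptor, stood at 4.21, 1.78, 2.15, 4.29 and 4.01 CPM in wild type and 0.683, 1.23, 0.994, 1.35 and 1.77 CPM with saline, without overlap (log2 fold change -1.45 ± 0.32 (SE), adjusted p = 0.0201). All 18 lymphocyte markers had a negative log2 fold change, with a median of -0.61. Summed over the 18, the level was 466, 172, 243, 266 and 180 CPM in wild type libraries 1 to 5. It was 108, 240, 105, 237 and 225 CPM with saline, so the groups overlapped, with wild type library 1 the highest. Most of this sum came from Igkc and Jchain, so it says little of the other markers. All 7 neutrophil markers had a positive log2 fold change, with a median of 1.99 and 2.64 without saline libraries 1 and 3. The second of these medians still includes saline library 2. The summed level of the 7 was 14.4, 3.77, 15.9, 16.2 and 27.2 CPM in wild type libraries 1 to 5. It was 7.93, 214, 9.97, 32.4 and 25.8 CPM in saline libraries 1 to 5, highest in library 2, and the groups overlapped. The neutrophil genes S100a8 and S100a9 stood at 1.18, 49.4, 1.33, 7.002 and 4.83 and 2.23, 67.3, 2.56, 10.2 and 8.96 CPM in saline libraries 1 to 5, with saline library 2 far above the rest. Sele, an endothelial adhesion molecule for leukocytes, stood at 15.3, 4.31, 12.7, 24.5 and 13.5 CPM in wild type and 31.1, 42.003, 52.7, 37.3 and 26.6 CPM with saline. Its groups did not overlap (log2 fold change 1.43 ± 0.33 (SE), adjusted p = 0.0251).

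Some lists held no called gene, where 5.12% of all genes were called; with so few genes this is no result about them: 22 genes of leptin and insulin signalling, 40 of oxidative phosphorylation, 35 of interferon and antigen presentation, 20 of tubular injury and repair, and 24 immediate early and heat shock genes. Their median log2 fold changes were 0.17, 0.36, -0.068, 0.16 and 0.33. Of 20 clock genes 15 were higher and 5 lower, with a median log2 fold change of 0.77. That median was 0.71 with the tubule covariate and 0.64 without saline libraries 1 and 3. The summed level of the list was 2103, 1226, 2096, 838 and 730 CPM in wild type libraries 1 to 5. With saline it was 2288, 1983, 2250, 1926 and 1933 CPM, so wild type libraries 1 and 3 lay inside the saline range. Only Arntl, a core activator of the clock, was called. It stood at 4.34, 29.97, 7.11, 52.5 and 63.4 CPM in wild type and 3.99, 6.18, 4.23, 5.15 and 4.83 CPM with saline. Wild type libraries 1 and 3 lay near the saline libraries and the other three far above, so the groups overlapped (log2 fold change -2.69 ± 0.58 (SE), adjusted p = 0.0191). The labels state no time of day for tissue collection, and its part was not tested.

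Because the ob mutation was bred onto the BTBR background, genes near Lep were counted. Within 10 Mb of the Lep start 108 genes were tested, of which 2 rose and 3 fell (4.63%), against 5.12% called in either direction over all genes. Within 5 Mb 4 of 60 genes were called (6.67%) and within 2 Mb 3 of 37 (8.11%). The risen genes were Slc13a1 (2.24 on the log2 scale, but -0.12 with the glomerular share as a covariate and -0.18 with the tubule covariate without Kap) and Tspan33 (2.17), and Lrrc4, Smo and Ptn fell by 1.63, 0.98 and 0.77. None of the 5 was called in all 15 alternatives. Smo, the signal transducer of the hedgehog pathway, stood at 93.1, 87.8, 133, 98.8 and 84.5 CPM in wild type and 60.97, 27.5, 64.8, 47.4 and 51.2 CPM with saline, without overlap (log2 fold change -0.98 ± 0.24 (SE), adjusted p = 0.0281).

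In the 7 atrasentan libraries, given beside the groups as levels without a comparison, Snx31 stood at 13.9 ± 2.58, Sfrp2 at 751 ± 138, Pcdh7 at 16.6 ± 6.58, C1qtnf3 at 43.9 ± 16.1 and Qrfpr at 61.7 ± 17.7 CPM (mean ± SD, n = 7). The means of the same genes were 18.4 ± 3.42, 382 ± 104, 14.2 ± 4.04, 30.5 ± 5.55 and 43.7 ± 29.8 CPM over the saline libraries (n = 5) and 58.4 ± 11.7, 1307 ± 213, 3.16 ± 0.467, 9.49 ± 0.814 and 2.03 ± 2.29 CPM over the wild type libraries (n = 5). The atrasentan libraries also differed in make-up. Their podocyte marker mean was 5.88 to 7.12, below the 7.73 to 8.41 of wild type. Their proximal tubule mean was at most 6.06, while that of the saline libraries was at least 5.98. They had reads in 21396 to 23081 genes, against 23901 to 25313 in the 10 compared libraries. The part of make-up in these levels was not tested, so they say nothing of a drug effect.

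**Figure D5:**
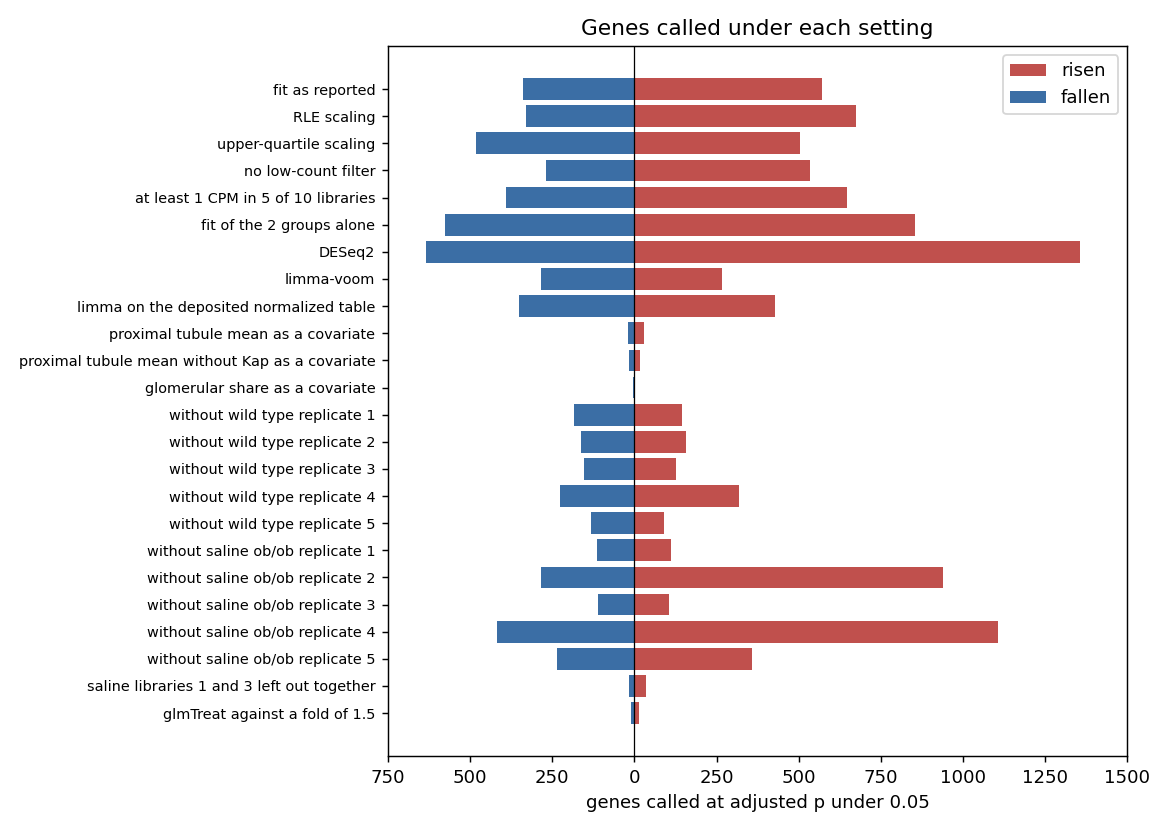
Number of genes called at an adjusted p under 0.05 (x axis; risen to the right, fallen to the left) under each setting (y axis). The fit as reported called 570 and 340, and the fit without saline libraries 1 and 3 called 36 and 18.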

How the data were processed

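Poly(A) RNA of glomeruli-enriched cortex from separate mice was sequenced single-end with a kit that does not mark strand, per the labels' protocols. The authors deposited raw read counts per gene for 53379 genes, and a table of normalized log2 values of unstated transform, which served 1 alternative. The build GRCm38 and the tools STAR, HTSeq, edgeR, limma and DESeq2 are named, with no role, in the submitters' processing notes. HTSeq lines that name no gene were left out of library sizes and tests. Reads with several alignments, 23.4% to 28.1% of a library in the 10 compared, are thus in none of the genes. The same holds for ambiguous reads, which fit more than 1 gene (3.18% to 3.37%). Levels of genes with near-identical copies or with overlapping genes, such as Slco1a6 and Ugt1a1, are therefore uncertain.

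The quasi-likelihood F test of edgeR 4.0.16 (R 4.3.3) was run over all 17 libraries with group as the factor, after filterByExpr by group and TMM scaling. P-values were adjusted by Benjamini-Hochberg over 17766 genes, tests are two-sided, and the SE is the log2 fold change divided by the square root of F. Alternatives used DESeq2 1.42.0 and limma 3.58.1. The script was tested on simulated data. Means of marker lists use log2 CPM with a prior count of 2. Symbols and 1-based coordinates are from GENCODE M21 on GRCm38. Replicate numbers follow deposition order and pair nothing.

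Named genes were those with the lowest p, the largest separated changes, those called in all 15 alternatives or with a covariate, up to 6 called and the first 3 members of each list, and those near Lep. Gc, Gpx3, Igkc and Jchain were named after their values were seen. The groups, the 51 lists of 1019 symbols and the rules were chosen with earlier results of these data known.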

Additional observations from a re-analysis of the deposited data

Results flagged for a closer look

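In 6 of 130 groups of 5 libraries looked at, 1 library stood apart from the other 4 by Dixon's criterion, which chance alone gives in about 1 of 20 groups. With saline, library 2 had 49.4 CPM of S100a8 against 1.18 to 7.00 in the others, and 67.3 CPM of S100a9 against 2.23 to 10.2. In wild type, library 3 had 14.4 CPM of Cyp27b1 (0.236 to 2.83 in the others) and 6.01 CPM of Qrfpr (0.365 to 1.90). Wild type library 5 had 73.9 CPM of Col1a2 (97.2 to 102.8 in the others), and wild type library 4 had 198.0 CPM of Tgfb1 (131.9 to 150.8).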

How the results depend on the processing

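The number of called genes depended on the setting. The direction of a named gene rarely did. Most named genes were picked by their calls in these same libraries, so this is no separate support. The fit as reported called 570 risen and 340 fallen genes. DESeq2 called 1356 and 635, limma-voom 267 and 283, so that falls outnumbered rises, and the fit of the 2 groups alone 854 and 576. glmTreat against a fold of 1.5 called 13 and 12. With the proximal tubule covariate 29 rose and 19 fell, without Kap in that mean (an alternative chosen after seeing the data) 16 and 17, and with the glomerular share 1 and 5. Without saline libraries 1 and 3 together 36 rose and 18 fell. Leaving out 1 library at a time gave 89 to 1105 risen and 110 to 418 fallen genes. The cause of these differences was not tested. Of the 57 called genes named with a value, 36 were no longer called with the proximal tubule covariate, 34 without saline libraries 1 and 3, and 1 to 24 when 1 library was left out.

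Slc13a1 changed sign with the glomerular share as a covariate (-0.12) and with the proximal tubule mean without Kap (-0.18). Among uncalled genes, Ehd3 changed sign with the covariates (0.024, 0.042 and 0.11), and Tgfb1 with upper-quartile scaling (-0.022) and without saline library 2 (-0.015) or 4 (-0.0026), its leave-one-out values running from -0.015 to 0.17. No paired analysis was possible because the labels number no replicates. At 5 against 5 libraries, small changes of variable genes are beyond the precision of these data.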
